A study of Homo sapiens with 6 samples.

Results

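Autophagy genes were followed in HEC-1-A cells treated with SMIP34, 10 in all: ULK1, BECN1, WIPI1, ATG5, MAP1LC3B, GABARAPL1, GABARAPL2, SQSTM1, NBR1 and TFEB. They were taken by symbol from the gene-level count tables, where all 10 were present among 23228 genes and all 10 passed the filter on low counts. RNA-seq libraries had been made from HEC-1-A, an established line of human endometrial adenocarcinoma, after 24 h with 20 µM SMIP34, a small-molecule inhibitor of the coregulator PELP1, or without it (control), with 3 libraries in each group. The study describes its controls as vehicle treated, whereas the labels of these libraries name the medium alone. Both groups were of the same line, and the data describe 1 cell line at 1 dose and 1 time. The labels do not say that the libraries of a group came from separate cultures, and the p-values measure the spread between these libraries, which may be technical.

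Autophagy encloses part of the cytoplasm in a double membrane and delivers it to the lysosome for breakdown. A kinase complex built on ULK1 starts the process, a lipid kinase complex with BECN1 marks the forming membrane, and proteins of the ATG8 family (the LC3 and GABARAP proteins) are attached to that membrane by a conjugation machinery that includes ATG5. Cargo receptors such as SQSTM1 (p62) and NBR1 hold ubiquitinated cargo and ATG8 proteins at the same time and are themselves degraded with the cargo, and TFEB is a transcription factor of lysosomal and autophagy genes.

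The libraries held 19562711 to 22014835 assigned reads each, and the lowest count of any of the 10 genes in a library was 269. Epithelial markers were abundant, with a summed level of 3639 to 3721 CPM (read counts scaled to library size) over 6 genes in the controls and 3615 to 3652 after SMIP34. Of 5 endometrial carcinoma markers, PAX8 was at 297 CPM in the controls and 287 CPM after SMIP34, and MSX1 at 10.1 and 11.4 CPM (means). The other 3 had means under 1 CPM. WT1 had at most 5 reads in a library, and the hormone receptor genes ESR1 and PGR had at most 1. Of 5 stromal markers, LUM was at 0 in all libraries, and the summed level was 2.73 to 3.56 CPM in the controls and 4.09 to 4.70 CPM after SMIP34, ranges that did not overlap, with COL1A1 as most of the signal. Of 5 leukocyte markers, CD3E was at 0, and the summed level was 1.83 to 1.89 CPM and 1.81 to 3.07 CPM. The part of these low signals in the results was not tested. In bulk RNA, fewer cells of a kind cannot be told apart from less RNA per cell. PELP1 mRNA itself was higher after SMIP34, by 0.16 ± 0.04 on the log2 scale (SE, n = 3 per group; edgeR adjusted p = 0.000746). This is mRNA only, and the study reported less PELP1 protein after SMIP34 by Western blotting of endometrial cancer cells. The doses, times and cells of those blots were not all those of these libraries. The study also reported faster loss of the protein in a cycloheximide chase.

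The strongest responses were those of SQSTM1, GABARAPL1 and WIPI1, and the sequences upstream of a start of these 3 genes are shown beside their expression. Each is 300 bases of GRCh37, the build of the counts, read 5′ to 3′ on the gene's strand. The window ends at the start of 1 reference transcript (MANE Select). Where an exon of the gene in the counting annotation began before the start and reached within 300 bases of it or past it, the start was moved. It went to that exon's upstream edge, at any distance, and the step was repeated from there. SQSTM1 lies on the plus strand and its window is chr5:179247542-179247841, which lies inside the counted gene, since other transcripts start farther upstream. The window of GABARAPL1, also on the plus strand, is chr12:10365176-10365475, and that of WIPI1, on the minus strand, is chr17:66453654-66453953. Capitals mark every match, on either strand, to CACGTG (the E-box of TFEB-type factors), TGACNNNGC (the core of the antioxidant response element), TGANTCA (the AP-1 site), TGACGTCA (the cAMP response element) or GTAAACA (a FOXO site).
SQSTM1: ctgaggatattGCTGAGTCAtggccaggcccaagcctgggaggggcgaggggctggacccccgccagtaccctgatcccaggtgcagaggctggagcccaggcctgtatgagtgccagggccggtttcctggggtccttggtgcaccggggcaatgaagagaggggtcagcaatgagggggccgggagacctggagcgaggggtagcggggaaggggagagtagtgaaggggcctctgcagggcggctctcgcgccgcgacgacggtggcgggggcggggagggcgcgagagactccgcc
GABARAPL1: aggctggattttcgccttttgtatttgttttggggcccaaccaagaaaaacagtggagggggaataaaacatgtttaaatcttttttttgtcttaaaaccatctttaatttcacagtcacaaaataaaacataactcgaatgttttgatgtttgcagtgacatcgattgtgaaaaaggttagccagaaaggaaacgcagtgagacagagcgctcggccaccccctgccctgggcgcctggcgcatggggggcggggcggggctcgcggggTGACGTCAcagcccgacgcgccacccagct
WIPI1: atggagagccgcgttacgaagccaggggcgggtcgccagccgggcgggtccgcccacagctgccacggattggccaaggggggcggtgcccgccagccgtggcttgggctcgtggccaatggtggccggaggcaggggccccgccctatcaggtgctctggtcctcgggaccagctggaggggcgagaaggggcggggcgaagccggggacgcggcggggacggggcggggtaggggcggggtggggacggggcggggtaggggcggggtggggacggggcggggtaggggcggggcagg

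The capitals in SQSTM1 are 1 run, GCTGAGTCA, beginning 289 bases before the moved start. In it the antioxidant response element core, read on the opposite strand, overlaps the AP-1 site TGAGTCA. The antioxidant response core was found in 12.8% and the AP-1 site in 5.76% of the windows of all 18922 genes searched, and SQSTM1 was the 1 gene of the 10 with either. GABARAPL1 held the cAMP response element TGACGTCA 30 bases before its start, a word found in 2.22% of all windows and in no other of the 10. WIPI1 held none of the 5 words. The E-box, present in 8.41% of all windows, was found upstream of BECN1 and ATG5, and the FOXO word, in 2.65% of all windows, upstream of none of the 10. These matches depended on where the start was placed. With the MANE Select starts taken as they are, not moved to the edge of the exon in the counting annotation, the SQSTM1 window held neither word, MAP1LC3B held the antioxidant response core, ATG5 held the cAMP response element beside GABARAPL1, and the E-box remained at BECN1 and ATG5. A match is a description of letters and was not tested for binding.

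Of the 10 genes, 4 rose after SMIP34 and 2 fell at an adjusted p under 0.05 over all 13408 genes tested, and 4 did not pass. The same limits called 17.4% of all genes higher and 17.2% lower. The 4 that rose were SQSTM1, GABARAPL1, WIPI1 and NBR1, and the 2 that fell were BECN1 and ATG5. In each of these 6 genes the 3 SMIP34 libraries did not overlap the 3 controls, a separation seen upward in 22.6% and downward in 21.9% of all genes. With a log2 fold change over 0.5 asked as well, which 1.44% of all genes met upward, SQSTM1 passed. The median log2 fold change of the 10 genes was 0.06, against -0.0022 over all genes tested, and the size of a called change had a median of 0.20 on the log2 scale over all genes called.

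**Figure D1:**
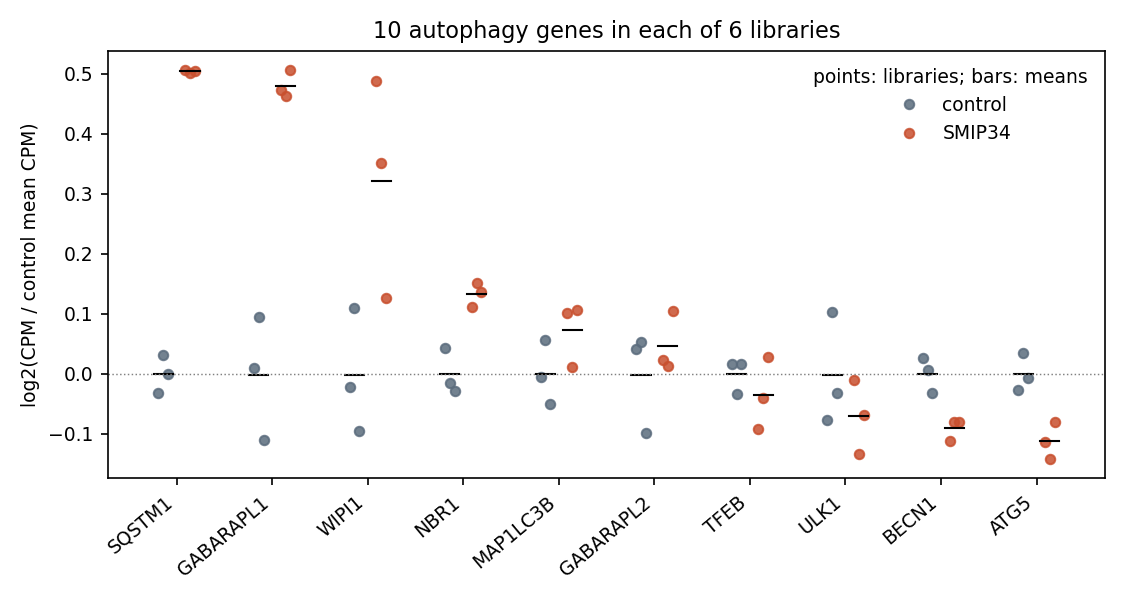
Level of each of the 10 genes in each library as log2 of its CPM over the mean CPM of the controls (y axis; genes on the x axis in order of fold change); points are the 3 control (grey) and 3 SMIP34 (red) libraries and short bars are group means. The SMIP34 points of SQSTM1 lie within 0.50 to 0.51, those of WIPI1 spread from 0.13 to 0.49, and MAP1LC3B, GABARAPL2, TFEB and ULK1 overlap their controls.

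SQSTM1, the ubiquitin-binding cargo receptor p62, showed the largest change. Its level was 1012, 1058 and 1035 CPM in the controls and 1470, 1464 and 1469 CPM after SMIP34. The groups were 407 CPM apart at their nearest libraries, and the SMIP34 libraries lay closer together (SD 2.79 CPM) than the controls (SD 22.9 CPM, n = 3 each). This was a log2 fold change of 0.50 ± 0.02 (SE; edgeR adjusted p = 1.03e-14), or 41.8% more, and ranked 302 among the increases of all genes tested. The value stood at the limit of 0.5: it was 0.49 to 0.52 over the 18 alternative analyses, in all of which the adjusted p passed, and 0.49 was the value without control replicate 1. SQSTM1 was also by far the most abundant of the 10 genes, at 605 ± 15.1 TPM (read counts scaled to exon length and library size; SD, n = 3) in the controls and 901 ± 2.46 TPM after SMIP34. In the controls 213 genes had a higher TPM. TPM and CPM moved differently between the groups, as ULK1 was at 40.6 and 38.7 CPM but at 15.13 and 15.16 TPM (means, control and SMIP34). The 41.8% is from the fit and not from TPM. The gene spans chr5:179233388-179265077, and exons of MGAT4B and C5orf45 overlap its own on the opposite strand. Counting was strand-specific, and MGAT4B and C5orf45 had log2 fold changes of -0.03 ± 0.03 (adjusted p = 0.435) and -0.03 ± 0.08 (adjusted p = 0.782).

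NBR1, the other ubiquitin-binding receptor among the 10, rose by less. It was at 226, 217 and 215 CPM in the controls and 237, 244 and 241 CPM with SMIP34, groups 10.9 CPM apart. The log2 fold change was 0.13 ± 0.03 (adjusted p = 0.000826), an increase of 9.66%, and NBR1 passed in all 18 alternatives. Within a library there were 4.71 SQSTM1 reads for each NBR1 read in the controls (geometric mean) and 6.10 after SMIP34. This log2 ratio, which restates the fold changes of both genes, differed by 0.37 ± 0.04 (SE, n = 3 per group). An exact two-sided permutation test gave p = 0.1, the smallest that 3 against 3 libraries allow (adjusted over 3 ratios, 0.1). Of the summed TPM of 13 cargo receptor genes, SQSTM1 made up 37.5% ± 0.770 (SD, n = 3) in the controls and 44.7% ± 0.328 after SMIP34.

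Of the 5 ATG8 family genes tested, 1 rose, GABARAPL1, and 1 fell, GABARAP (20% each, beside 17.4% and 17.2% of all genes). With a correction for exon length 3 were higher and 0 lower, beside 2231 and 2000 of all 13408 genes tested. GABARAPL1, which encodes a GABARAP-type ATG8 protein, was at 14.5, 15.4 and 13.3 CPM in the controls and 20.0, 19.8 and 20.4 CPM after SMIP34. No library of a group came within 4.48 CPM of the other group. The log2 fold change was 0.48 ± 0.07 (adjusted p = 1.31e-05), 39.4% more than the controls, and it passed in all 18 alternatives at 0.43 to 0.54. Its rank among the increases was 342, and with the value just under 0.5 it missed the fold limit that SQSTM1 met.

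Its paralog GABARAPL2 (GATE-16) was at 70.7, 71.2 and 64.1 CPM in the controls and 69.8, 69.3 and 73.8 CPM after SMIP34. These groups overlapped, and the log2 fold change of 0.05 ± 0.04 did not pass (adjusted p = 0.434). MAP1LC3B, the gene of the widely used autophagosome marker LC3B, was at 91.0, 95.0 and 88.2 CPM against 98.0, 92.1 and 98.4 CPM. The highest control exceeded the lowest SMIP34 library, and the log2 fold change was 0.07 ± 0.04 (adjusted p = 0.148).

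Ratios within a library restate these fold changes without any library scaling, and are not separate support for them. There were 0.209 GABARAPL1 reads per GABARAPL2 read in the controls and 0.283 after SMIP34, a log2 difference of 0.43 ± 0.03. Against MAP1LC3B the ratio went from 0.157 to 0.209, a log2 difference of 0.41 ± 0.04. Each of these differences had an exact two-sided permutation p = 0.1, again the smallest possible, with no overlap of the groups. GABARAPL1 nevertheless remained a minor transcript of its family, at 2.59% ± 0.0743 of the summed TPM of the 7 ATG8 genes in the controls and 3.71% ± 0.0135 after SMIP34 (SD, n = 3). GABARAP itself, a gene outside the 10, fell by 0.12 on the log2 scale (SE 0.03; adjusted p = 0.00427). Close copies of these genes took few reads, as GABARAPL3 had 0 counts in every library and MAP1LC3B2 had 30 to 52.

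**Figure D2:**
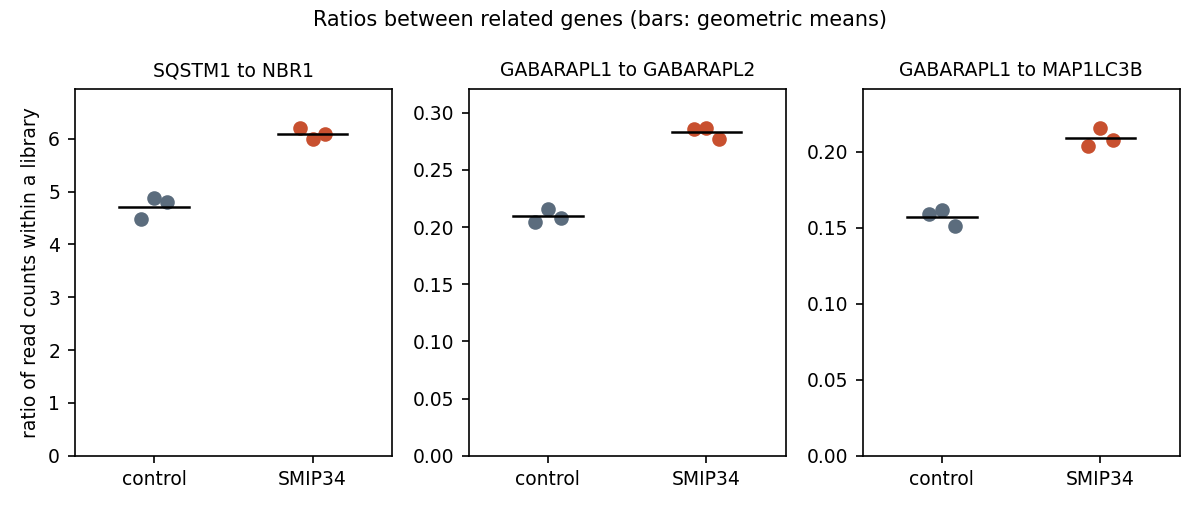
Read count ratios within a library for SQSTM1 to NBR1, GABARAPL1 to GABARAPL2 and GABARAPL1 to MAP1LC3B (y axes from 0), with 1 point per library and bars at the geometric means. In each panel the 3 SMIP34 libraries lie above the 3 controls, with means of 6.10 against 4.71, 0.283 against 0.209, and 0.209 against 0.157.

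WIPI1, which encodes a protein that binds the phosphoinositide PI3P on the forming membrane, was at 14.3, 15.6 and 13.6 CPM in the controls and 20.3, 18.5 and 15.8 CPM after SMIP34. The third SMIP34 library was 0.173 CPM above the highest control, so the groups were separate by a narrow margin. The log2 fold change was 0.33 ± 0.09 (adjusted p = 0.00439), or 25.5% more. It passed in 17 of 18 alternatives, and without SMIP34 replicate 1 it was 0.24 with an adjusted p of 0.0502.

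BECN1, the Beclin 1 subunit of the class III PI3-kinase complex, was at 107, 106 and 103 CPM in the controls and 97.6, 99.7 and 99.7 CPM after SMIP34. It fell by 0.09 on the log2 scale (SE 0.03; adjusted p = 0.0404). ATG5, whose product is joined to ATG12 and promotes ATG8 conjugation, was at 61.8, 64.5 and 62.6 CPM against 58.2, 57.1 and 59.5 CPM. It fell by 0.11 on the log2 scale (SE 0.04; adjusted p = 0.0345). Both decreases stood near the threshold, since BECN1 passed in 7 and ATG5 in 11 of the 18 alternatives, and neither passed with DESeq2 (adjusted p = 0.097 and 0.103). Without 1 library, BECN1 passed in 1 of 6 cases, when control replicate 3 was left out, and ATG5 in 3 of 6, being lost without control replicate 2 or SMIP34 replicate 1 or 2, at -0.13 to -0.09 for ATG5 and -0.11 to -0.08 for BECN1.

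ULK1, the kinase that starts autophagy, was at 38.5, 43.5 and 39.7 CPM in the controls and 40.3, 36.99 and 38.7 CPM after SMIP34. These ranges overlapped and the log2 fold change was -0.07 ± 0.05 (adjusted p = 0.321). TFEB was at 13.9, 13.4 and 13.9 CPM in the controls and 12.9, 13.3 and 13.96 CPM after SMIP34, with a log2 fold change of -0.03 ± 0.08 (adjusted p = 0.785). Neither ULK1 nor TFEB passed in any of the 18 alternatives. Per exon length, the controls ranged from 10.8 ± 0.415 TPM for TFEB, 14.7 ± 0.782 for WIPI1, 15.0 ± 0.754 for GABARAPL1 and 15.1 ± 0.831 for ULK1 (SD, n = 3) up to 133 ± 5.13 TPM for GABARAPL2 and 605 TPM for SQSTM1. The levels of WIPI1, GABARAPL1 and ULK1 in this order did not differ beyond their spread.

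Exon length moved some of these calls. When each library was corrected for its own trend with exon length, GABARAPL2, which has the shortest exon length of the 10 (1002 bases), had a log2 fold change of 0.14 ± 0.04 (adjusted p = 0.00725) and MAP1LC3B 0.11 ± 0.04 (adjusted p = 0.0183), both then past the threshold. BECN1 was then at -0.05 ± 0.03 (adjusted p = 0.269). SQSTM1 and GABARAPL1 changed places about the limit of 0.5, at 0.498 ± 0.020 and 0.53 ± 0.07. With this correction 6 of the 10 genes were higher and 1, ATG5, was lower, beside 2231 and 2000 of all 13408 genes tested.

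**Figure D3:**
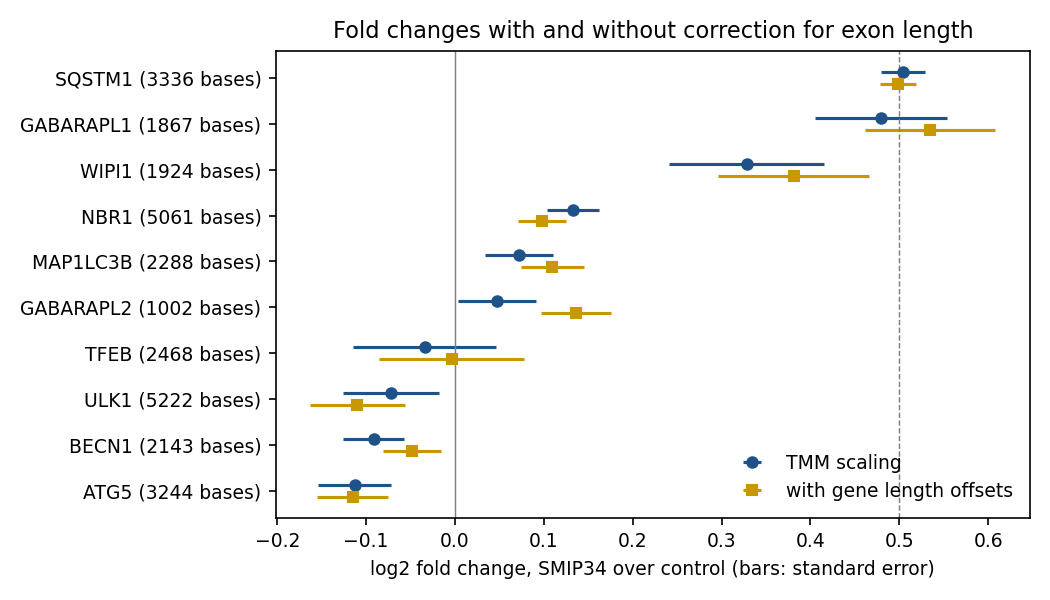
Log2 fold change (x axis, SMIP34 over control, bars are standard errors) of the 10 genes (y axis, with exon length in bases) from the fit with TMM scaling (circles) and from the fit with offsets for exon length (squares); the dashed line is the 0.5 limit. GABARAPL2 moved most, from 0.05 to 0.14, and SQSTM1 least among the genes that rose, from 0.504 to 0.498.

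The other genes of the pathway were taken from a list of 61, of which 58 could be tested. After SMIP34, 18 of them (31.0%) rose and 4 (6.90%) fell, beside 17.4% and 17.2% of all genes, with a median log2 fold change of 0.06. The numbers depended on the method. With DESeq2, 14 of the 58 passed in either direction, 10 higher and 4 lower, beside 3558 of all 13408 genes. In the ULK1 complex, 3 of the other 4 genes rose, led by ATG101, a subunit that stabilises ATG13, at 0.28 ± 0.04 (adjusted p = 7.23e-06). In the PI3-kinase group 4 of 7 rose, and the largest change was that of RUBCN (Rubicon), known as an inhibitor of autophagosome maturation, at 0.37 ± 0.05 (adjusted p = 4.49e-06). With the exon length correction 2 of these 7 were higher, beside 2231 of all 13408 genes tested. Among the PI3P effectors and lipid transfer proteins 1 of 8 rose, ATG2B, at 0.20 ± 0.07 (adjusted p = 0.0226). In the conjugation machinery 3 of 10 rose, led by ATG4A, a protease that processes ATG8 proteins, at 0.25 ± 0.07 (adjusted p = 0.0074). With the exon length correction 2 of the other 4 ULK1 complex genes and 4 of these 10 were higher. So were 2 of the 8, ATG2B not among them (edgeR adjusted p = 0.368).

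Of the other 11 cargo receptor genes 6 rose (54.5%) and 1 fell (9.09%), beside 17.4% and 17.2% of all genes tested. With the exon length correction 5 of the 11 were higher and 0 lower. RETREG1, a receptor for endoplasmic reticulum, had the largest increase beside SQSTM1, at 0.23 ± 0.09 (adjusted p = 0.0481), and TEX264, also a receptor for endoplasmic reticulum, fell by 0.15 on the log2 scale (adjusted p = 0.00479). Of 14 genes for fusion with the lysosome, EPG5, a tethering factor, rose by 0.25 ± 0.06 (adjusted p = 0.00104) and the SNARE gene VAMP8 fell by 0.12 on the log2 scale (adjusted p = 0.0119). Of the 2 relatives of TFEB tested, MITF fell by 0.14 on the log2 scale (adjusted p = 0.00905). In all, 15 of the 58 genes were higher and 1 was lower with that correction, beside 2231 and 2000 of all 13408 genes. GABARAP, TEX264, ATG2B, RETREG1, EPG5 and VAMP8 then no longer passed.

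Lysosomes receive the finished autophagosomes. Of 36 lysosomal genes tested 1 rose (2.78%) and 13 fell (36.1%), beside 17.4% and 17.2% of all genes. The median log2 fold change of the 36 was -0.03, against -0.0022 for the 13408 genes as a whole. Hydrolases and their activators, 19 of the 36 genes, held 10 of the 13. Among these 10 was NAGLU, an enzyme of heparan sulfate breakdown, which fell by 0.30 on the log2 scale (SE 0.04; adjusted p = 4.06e-06). The 1 that rose was GLA, the alpha-galactosidase A gene, at 0.20 ± 0.06 (adjusted p = 0.00891). Of 8 membrane protein genes 3 fell, led by the chloride transporter gene CLCN7 at -0.13 ± 0.03 (adjusted p = 0.00405). Of 9 genes of the proton pump, 0 passed with edgeR, DESeq2 or limma voom, and 1 had an unadjusted p under 0.05 in edgeR. With the correction for exon length 3 of the 9 were higher. That correction gave 6 lysosomal genes higher and 10 lower in all, beside 2231 and 2000 of all 13408 genes. The balance of the list thus depended on it. NEU1, a sialidase gene annotated at several copies of its locus, so that its reads are uncertain, had the highest value of both lists, 0.56 ± 0.34, and did not pass (adjusted p = 0.222).

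**Figure D4:**
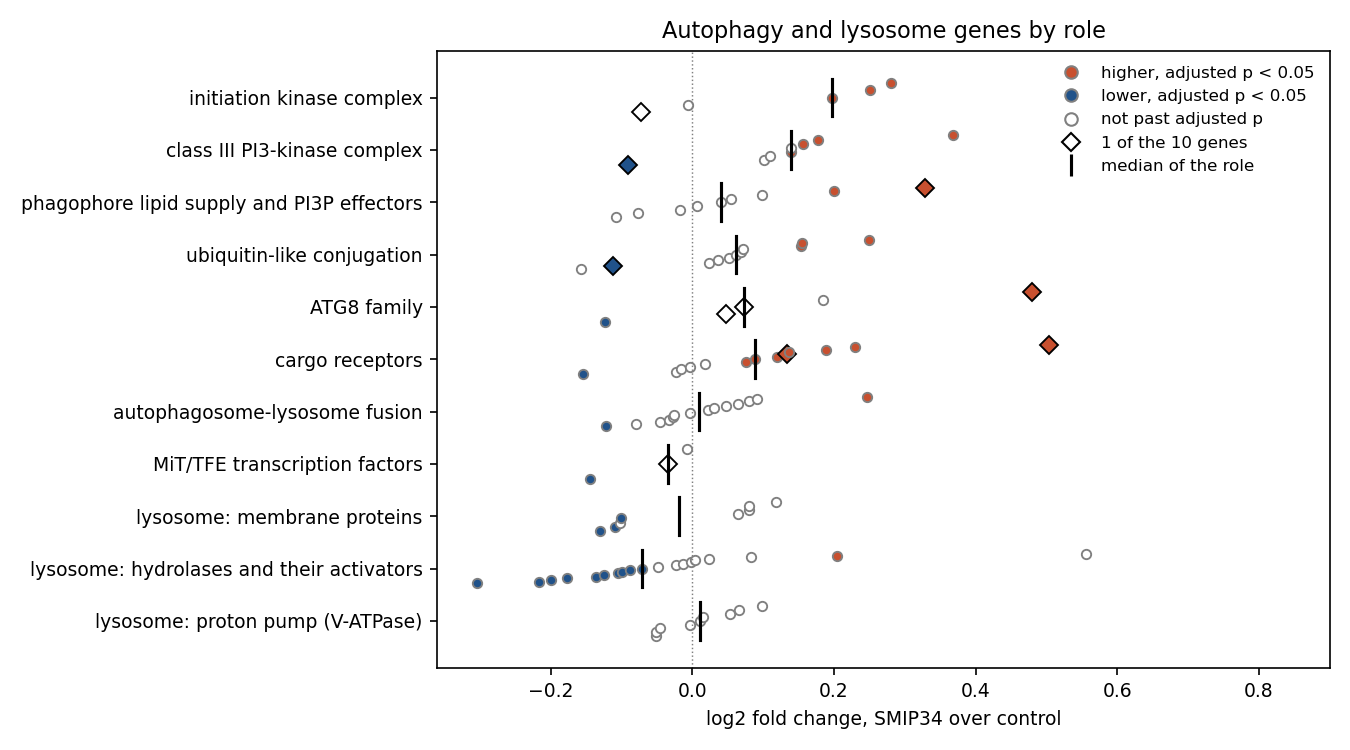
Log2 fold change (x axis, SMIP34 over control) of each tested gene of the autophagy and lysosome lists, by role (y axis); diamonds are the 10 genes, red and blue mark adjusted p under 0.05 and black bars are medians of the role. SQSTM1 at 0.50 and GABARAPL1 at 0.48 lie to the right of every other gene past the threshold, the open circle beyond them is NEU1 at 0.56, and NAGLU at -0.30 lies farthest to the left.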

How the data were processed

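The authors' processing notes name bcl2fastq, HISAT2, SAMtools and featureCounts, and the methods of the study name TopHat2 and HTSeq in their place. Per the file headers, featureCounts 1.5.0-p1 assigned reads to hg19 (GRCh37) gene models, strand-specifically and with a minimum mapping quality of 2. The deposited values are estimated counts, since 6.31 to 7.43% of the values in a library were not whole. These were rounded. SQSTM1 was not whole in 5 of 6 libraries, so some of its reads were shared with another location or gene. The files carry a paired-read setting while the series describes single reads.

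The 10 genes and the lists of autophagy and lysosome genes were chosen with earlier results of these data known. Genes passing filterByExpr (13408) were scaled by TMM and tested with edgeR 4.0.16 (R 4.3.3; glmQLFit, glmQLFTest, no covariate) with Benjamini-Hochberg adjustment over all of them. This common fit had a biological coefficient of variation of 3.03%. CPM came from the counts and TMM-scaled library sizes, except for the cell type markers, where library totals were used without TMM. TPM came from the counts and summed exon lengths. Log2 ratios of raw counts were compared by exact permutation over libraries. Libraries of a group differed by more than sampling noise (chi-square per gene 1.89 to 3.18 over 6 pairs), so each counted as 1. Alternatives were DESeq2 1.42.0, limma 3.58.1 voom, other scalings, filters and roundings, exon length offsets (loess, span 0.3), the replicate block and leaving out each library. The fit was tested on simulated data. Named from the lists were the largest called increase and decrease in each role, and MGAT4B and C5orf45 were named after their values were seen.

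Promoter windows end at the MANE Select start (GENCODE 44 lifted to GRCh37). It was moved to the upstream edge of any exon of the gene in the counting annotation that began before it and reached within 300 bases of it or past it. This was repeated from each new start. The move was chosen after a first search without it. Protein sequences were not used here.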

Additional observations from a re-analysis of the deposited data

How the results depend on the processing

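SQSTM1, GABARAPL1 and NBR1 passed in all 18 alternatives and WIPI1 in 17. Of the genes that fell, 0 passed with DESeq2, library totals as the scale, no filter on low counts or the replicate block (2 at an unadjusted p under 0.05 in each), 1 passed with length offsets, with or without the replicate block, and 0 to 2 passed without 1 library (0 without control replicate 2 or SMIP34 replicate 1 or 2). The count past the 0.5 limit, added after seeing the data, was 0 with upper-quartile scaling and 0 to 2 without 1 library (0 without control replicate 1, 2 without control replicate 2). Other autophagy genes that rose numbered 10 with DESeq2 and 11 to 19 without 1 library (11 without SMIP34 replicate 2), and those that fell numbered 1 with length offsets, with or without the block. Lysosome genes that rose numbered 2 with the legacy quasi-likelihood method, 6 with library totals or length offsets (with or without the block) and 1 to 3 without 1 library (3 without control replicate 2), and those that fell 8 to 11 without 1 library (8 without SMIP34 replicate 2). Of all 13408 genes tested, 3558 passed in either direction with DESeq2, and 2231 were higher and 2000 lower with length offsets and no block. Counts over all genes under the other settings are not given here, so a shift of a list cannot be told apart from a shift of all genes. The causes of these shifts were not tested. Deviations of same-numbered libraries correlated at -0.064, 0.017 and -0.017, and the main fit did not use the replicate numbers. Whether those numbers mark shared handling was not tested. The block kept all 4 increases and neither decrease. The 3 ratios kept their direction in every alternative. A shift in scale moved the median of all genes by at most 0.0186 on the log2 scale. The calls of BECN1, ATG5, MAP1LC3B and GABARAPL2 changed with the setting, and the data hold mRNA levels only.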
